A study of Mus musculus with 2 samples.

Results

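Elastic fibre and microfibril genes were followed in mouse bowel and mesenteric adipose tissue, the fat along the bowel, after an operation on the colon. The set holds 10 of the 32285 genes of the count matrices, taken by symbol: Eln, Fbn1, Fbn2, Fbln1, Fbln2, Fbln5, Mfap4, Mfap5, Ltbp2 and Emilin1. The rule that picks them uses names and no measured value. The 2 libraries were made on the 10x single-cell platform from B6/C57 mice aged 8 to 12 weeks on postoperative day 14, 1 after colotomy (a cut into the colon wall) and 1 after a sham operation. Bowel and adipose cells were digested separately, stained with hashtag antibodies and sequenced together in each library, and the number and sex of the animals are not given in the sources used here. Each operation is thus represented by a lone library, its animals are not separate samples, and no difference between the libraries was tested. All intervals below are exact 95% intervals that cover counting error only.

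Elastic fibres give skin, vessels and gut wall their recoil. A scaffold of microfibrils, built from the fibrillins Fbn1 and Fbn2 with the microfibril-associated proteins Mfap4 and Mfap5, receives elastin (Eln), which lysyl oxidases crosslink into an insoluble core. The fibulins Fbln1, Fbln2 and Fbln5, the latent TGF-beta binding protein relative Ltbp2 and Emilin1, a glycoprotein at the border of elastin and microfibrils, bind the fibre or guide its assembly, and fibroblasts and smooth muscle cells are its known makers.

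On GRCm38, the build behind the mm10 named in the submitters' processing notes, GENCODE places Eln on chromosome 5 (134702593 to 134747323), Emilin1 on chromosome 5 (30913402 to 30921277) and Fbn1 on chromosome 2 (125300594 to 125507993). Fbln2 (91212455 to 91272540) and Mfap5 (122505845 to 122529290) lie on chromosome 6. Ltbp2 (84783212 to 84876532) and Fbln5 (101746565 to 101819055) share chromosome 12. Fbln1 is on chromosome 15 (85205949 to 85286535) and Mfap4 on chromosome 11 (61485431 to 61488900). The values are UMIs of whole genes that were not scaled by length, so levels are compared between cells and not between genes. A gene of the opposite strand overlaps Eln, Fbn1, Fbn2, Mfap4 and Ltbp2, and whether counting used the strand is not given in the sources used here. Of the 4 opposite-strand genes with a row in the matrix, which that of Fbn2 lacks, the highest, Mapk7 at Mfap4, stood at 20.6 CPM (counts of a gene per 1000000 UMIs of a class of cells) in colotomy and 14.1 CPM in sham fibroblast-like cells, against 513 and 143 CPM of Mfap4 itself.

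Promoter sequences came from RefSeq (GRCm38.p6), whose table matched 6 of the 10 members. Ltbp2 and Fbln5 are shown because they stood at opposite ends of what follows: Ltbp2 had the largest ratio between the libraries, and Fbln5 the lowest. Each runs 5′ to 3′ on the minus strand of chromosome 12 and ends before the gene's own first annotated exon: 209 bases for Ltbp2 (chr12:84876533-84876741) and 250 bases for Fbln5 (chr12:101819120-101819369). Capitals mark every GC box, searched as the letters GGGCGG on both strands, and every CCAAT box, searched under the letters of its name on both strands.
Ltbp2: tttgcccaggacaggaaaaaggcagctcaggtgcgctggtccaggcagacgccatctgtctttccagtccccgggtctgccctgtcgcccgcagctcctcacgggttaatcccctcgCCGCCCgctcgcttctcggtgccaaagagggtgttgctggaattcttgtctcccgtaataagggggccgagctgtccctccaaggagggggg
Fbln5: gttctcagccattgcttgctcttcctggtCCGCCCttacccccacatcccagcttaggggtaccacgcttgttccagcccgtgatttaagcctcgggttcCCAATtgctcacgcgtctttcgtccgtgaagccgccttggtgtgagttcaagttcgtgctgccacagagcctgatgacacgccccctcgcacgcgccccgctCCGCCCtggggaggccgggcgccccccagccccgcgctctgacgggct
The Ltbp2 window held 1 GC box and the Fbln5 window 2 GC boxes and 1 CCAAT box. Of 32851 promoters, 26.5% held a GC box in a window of 209 bases and 32.7% in 250 bases, and 33.8% held a CCAAT box in 250 bases. Neither window held the core of TEAD sites, searched as GGAATG on both strands and found in 11.0% of promoters over 209 bases and 12.6% over 250 bases. The letters of AP-1 sites, TGANTCA, were likewise not in either window and occur in 5.82% and 6.75% of promoters. These matches describe the letters alone.

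The libraries differed in size and depth. After filtering, 9246 colotomy cells with a median of 778.5 UMIs and 42143 sham cells with a median of 1328 UMIs were left, and 108 kept barcodes occurred in both libraries. Xist, transcribed in female cells, stood at 394 CPM in colotomy and 0.724 CPM in sham cells, and a difference in the sex of the animals cannot be told apart from the operation. The fibroblast-like class, 2 clusters that each had 9 of the 9 fibroblast markers, held 3822 colotomy cells (41.3% of the library) and 5311 sham cells (12.6%), with 3158742 and 9274422 UMIs.

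Fibroblast-like cells were the main source of every member. They held between 81.0% (Fbln1) and 90.6% (Fbn2) of each member's UMIs in the colotomy library, where the class had 36.2% of all UMIs. In the sham library they held between 61.2% (Emilin1) and 83.7% (Fbn1), with 13.2% of all UMIs. Over all kept cells Eln therefore stood at 678 CPM in colotomy and 106 CPM in sham, a gap that holds both the larger fibroblast-like share and the level within it.

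Within fibroblast-like cells, 6 of the 10 members were at least 1.5-fold higher in colotomy and 0 were at least 1.5-fold lower, with 4 between. Of the 14600 genes whose UMIs in both libraries summed to 10 or more, 17.8% were at least 1.5-fold higher and 18.5% at least 1.5-fold lower by the same rule, and among 11661 genes with at least 50 UMIs the shares were 14.2% and 16.3%. The median log2 ratio was 1.07 over the members and -0.02 over all genes. Every member had 69 or more UMIs in each library, so all 10 passed the filter.

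Eln, the elastic core protein itself, stood at 1652 CPM in colotomy (1607 to 1697, 5217 UMIs) and 629 CPM in sham (613 to 645, 5831 UMIs), a log2 ratio of 1.39 (1.34 to 1.45). The colotomy library was the higher by 2.63-fold.

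The fibrillins parted. Fbn1, the main fibrillin of adult microfibrils, stood at 1479 CPM in colotomy (4672 UMIs) and 1208 CPM in sham (11199 UMIs), a log2 ratio of 0.29 (0.24 to 0.34) that stays under 1.5-fold. Fbn2, the fibrillin best known from development, stood at 131 CPM (118 to 144, 413 UMIs) and 21.7 CPM (18.8 to 24.9, 201 UMIs), a log2 ratio of 2.59 (2.35 to 2.84). The Fbn2 interval lies wholly above that of Fbn1.

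The fibulins did not move as a family. Fbln2 stood at 1325 CPM in colotomy and 789 CPM in sham, with a log2 ratio of 0.75 (0.69 to 0.80). Fbln1 stood at 355 and 394 CPM, a log2 ratio of -0.15 (-0.25 to -0.05). Fbln5, which ties elastin to cell surfaces, stood at 157 and 178 CPM, a log2 ratio of -0.18 (-0.33 to -0.04). Only the Fbln2 ratio passed 1.5-fold, while Fbln1 and Fbln5 were slightly lower in colotomy.

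Of the microfibril-associated proteins, Mfap4 stood at 513 CPM in colotomy (489 to 539) and 143 CPM in sham (135 to 151), a log2 ratio of 1.85 (1.74 to 1.95). Mfap5 stood at 867 and 720 CPM, a log2 ratio of 0.27 (0.21 to 0.33). Thus Mfap4 passed the fold and Mfap5, like Fbn1, did not. Ltbp2 was sparse: 163 UMIs gave 51.6 CPM in colotomy (44.0 to 60.2) and 69 UMIs gave 7.44 CPM in sham (5.79 to 9.42), a log2 ratio of 2.79 (2.38 to 3.22). Emilin1 stood at 196 CPM in colotomy (181 to 212) and 71.8 CPM in sham (66.5 to 77.5), a log2 ratio of 1.45 (1.29 to 1.61).

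Free RNA was judged from T cell-like cells, which should not make these proteins. In sham T cell-like cells the members lay between 0.226 CPM (Ltbp2) and 17.9 CPM (Fbn1). In colotomy T cell-like cells, only 197 cells, Eln stood at 83.7 CPM (12 UMIs), Fbn1 at 76.7 CPM (11 UMIs) and Fbln2 at 48.8 CPM (7 UMIs), and no UMI of Fbn2, Mfap4 or Ltbp2 was seen. The background was thus higher after colotomy for Eln, Fbn1 and Fbln2, and in both libraries it was far below the fibroblast-like levels. Plasma cell-like cells of the colotomy library carried more, 251 CPM of Eln, against 30.3 CPM in sham.

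At 1 fixed depth each of the 10 members had the same direction as in its CPM. After each fibroblast-like cell was thinned to 1000 UMIs, which left 788 colotomy and 4341 sham cells, Eln was found in 47.6% (44.1 to 51.1) of colotomy and 27.5% (26.2 to 28.9) of sham cells. Mfap4 was found in 32.0% and 9.79%, Fbn2 in 10.7% and 1.80%, Emilin1 in 18.5% and 6.75%, and Ltbp2 in 6.73% and 0.461%. Fbn1 was found in 62.4% and 54.9%, while Fbln5 was the more often found in sham cells, 10.4% in colotomy against 16.0%. The unthinned shares were 43.7% and 36.3% for Eln, at median depths of 718 and 1536 UMIs per cell. In the 4727 thinned sham T and B cell-like cells Eln was found in 0.846% and Fbn1 in 1.06%. In the 35 thinned colotomy T and B cell-like cells Eln was found in 5.71% (0.70 to 19.2), which is 2 cells. Only cells with at least 1000 UMIs could be thinned. All T and B cell-like cells, 9728 in sham and 281 in colotomy, had median depths of 983 and 635 UMIs.

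The class is a mixture of 2 clusters that the libraries filled unevenly. Cluster 5, led by Pcolce2, Scara5, Clec3b and Inmt, held 1588 colotomy and 5132 sham cells. Cluster 8, led by Ptn, Timp1, Col12a1 and Col1a1, held 2234 colotomy cells (58.5% of the class) and 179 sham cells (3.37%). The members had been left out of the genes used for clustering, which removed 8 of them from the variable genes, yet Fbn2 was still among the leading genes of cluster 8. Because cluster 8 came mostly from the colotomy library, cluster and library cannot be fully told apart.

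Several members marked cluster 8 in both libraries. Ltbp2 was at 81.4 CPM in cluster 8 and 3.32 CPM in cluster 5 of the colotomy library, and at 85.9 and 3.94 CPM in the sham library, log2 differences of 4.62 and 4.45. The colotomy value of cluster 5 rests on 4 UMIs. Eln was at 2167 against 816 CPM in colotomy and 2954 against 525 CPM in sham, so sham cluster 8 cells had the highest Eln level of the 4 sets. Mfap4 was at 697 against 216 CPM and at 788 against 114 CPM, and Fbn2 at 178 against 53.9 CPM and at 174 against 14.9 CPM. Emilin1 was 1.23 and 1.49 log2 units higher in cluster 8. Fbln5 ran the other way, -0.67 in colotomy and -0.43 in sham, and Fbn1 was lower in cluster 8 of the colotomy library (-0.60) and level in sham (0.04). These are descriptions of clusters, with no test.

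Held within 1 cluster, the ratios of the 6 members called over the whole class were smaller, while those of Fbn1 and Mfap5 in cluster 5 and of Fbln1 in both clusters were larger in size than over the class. In cluster 5, 5 members were at least 1.5-fold higher in colotomy and 0 at least 1.5-fold lower, where 17.7% and 16.7% of 14120 genes were. They were Eln (log2 ratio 0.64, 0.53 to 0.74), Fbn1 (0.64, 0.57 to 0.70), Fbn2 (1.86, 1.41 to 2.30), Mfap4 (0.92, 0.72 to 1.12) and Emilin1 (0.68, 0.40 to 0.96). Mfap5 stood at 0.34 and Fbln1 at -0.37, and Fbln5 at 0.18 (-0.02 to 0.38), against -0.18 over the class. Ltbp2 had 4 colotomy and 35 sham UMIs there, a log2 ratio of -0.25 (-2.20 to 1.24). In cluster 8, 1 member was at least 1.5-fold higher, Fbln2 (0.60, 0.45 to 0.76), and 1 at least 1.5-fold lower, Fbln1 (-0.70, -0.90 to -0.48), where 18.2% and 18.3% of 11605 genes were. Eln was lower in colotomy cluster 8 cells (-0.45, -0.54 to -0.35). Fbn2 (0.03), Ltbp2 (-0.08) and Mfap4 (-0.18) had intervals that include 0 there. The pooled ratio of Ltbp2 thus has no counterpart within either cluster, while Fbn2 and Mfap4 kept one in cluster 5. The median UMI count per cell was 682 against 1530 in cluster 5 and 762 against 1885 in cluster 8, colotomy against sham.

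**Figure D1:**
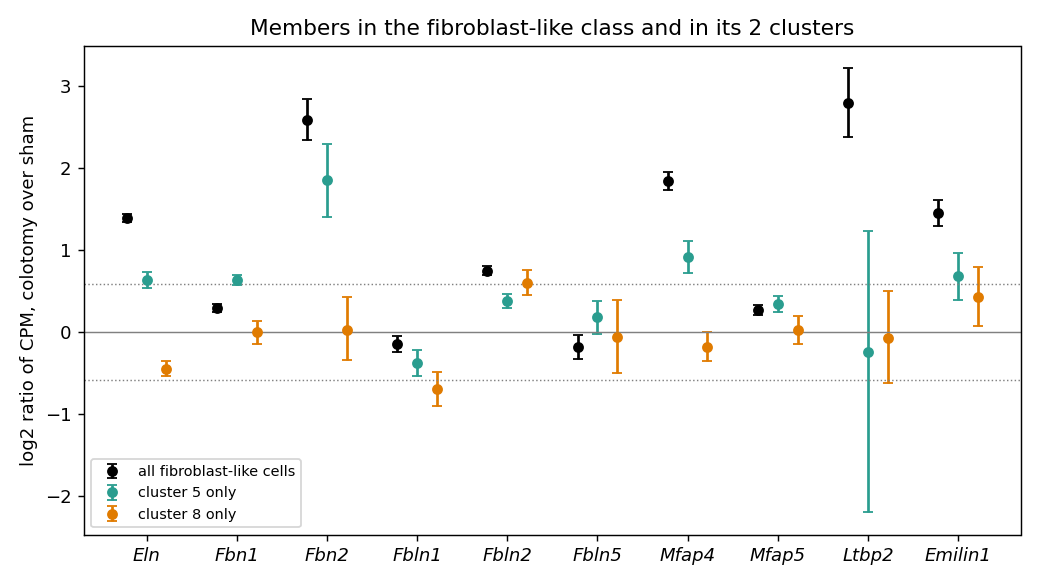
Log2 ratio of each member's CPM, colotomy over sham, in all fibroblast-like cells (black) and within cluster 5 (green) and cluster 8 (orange), with exact 95% counting intervals; dotted lines mark 1.5-fold. Black points lie above both cluster points for Eln (1.39 against 0.64 and -0.45), Mfap4, Fbn2, Ltbp2, Emilin1 and Fbln2.

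Finer clusters, drawn at a higher resolution and read only over cells of the fibroblast-like class, split the members into groups with different peaks. Only those with at least 50 such cells in each library were read. Cells of the class outside them are not covered, and each peak is the highest among the clusters read. In cells led by Ptn, Fmod and Col12a1 (2005 colotomy and 199 sham cells), Eln stood at 2344 and 3173 CPM, Mfap4 at 753 and 840 CPM, Ltbp2 at 90.7 and 93.6 CPM, Fbn2 at 180 and 174 CPM and Emilin1 at 278 and 211 CPM, in colotomy and sham. All 5 were at their highest there in both libraries. Cells led by Efhd1, Sbsn and Sema3c (779 and 1400 cells) had the highest Fbn1, 3192 and 2621 CPM, the highest Mfap5, 1507 and 1491 CPM, and the highest Fbln5, 257 and 242 CPM. Pi16, taken up below, was also highest in these cells, at 1598.5 and 1289 CPM, against 441 CPM or less in the other finer clusters. In these same cells Mfap4 stood at 139 and 34.8 CPM and Ltbp2 at 1.69 and 1.53 CPM (1 and 4 UMIs). So the microfibril proteins Fbn1 and Mfap5 peaked in other cells than Eln and Mfap4.

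Cells led by Inmt, Gdf10 and Abca8a (441 and 2861 cells) made up 53.9% of sham fibroblast-like cells and 11.5% of colotomy ones. Eln stood there at 1134 and 723 CPM, and Fbln1 at 438 and 547 CPM. Cells led by Adamdec1 and by proliferation genes such as Top2a and Mki67 (73 and 549 cells) were low in most members, with Eln at 429 and 165 CPM and Mfap5 at 85.7 and 99.4 CPM. They are the 622 fibroblast-like cells of a finer cluster of 1053 cells that, taken whole, was led by Myh11 and Acta2 and named smooth muscle-like. In these 622 cells the 8 smooth muscle markers summed to 154 and 65.2 CPM, against 9004 and 6137 CPM in the smooth muscle-like class, and the 9 fibroblast markers to 9909 and 6323 CPM, against 42384 and 20301 CPM in the whole fibroblast-like class. Cells led by the macrophage genes Lyz1 and Retnla (248 in each library), from a finer cluster left unnamed, had intermediate levels, and barcodes holding a fibroblast and a macrophage could not be told apart from single cells. Eln was higher in colotomy than in sham cells of each finer cluster except the one led by Ptn and Fmod, where sham was higher.

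**Figure D2:**
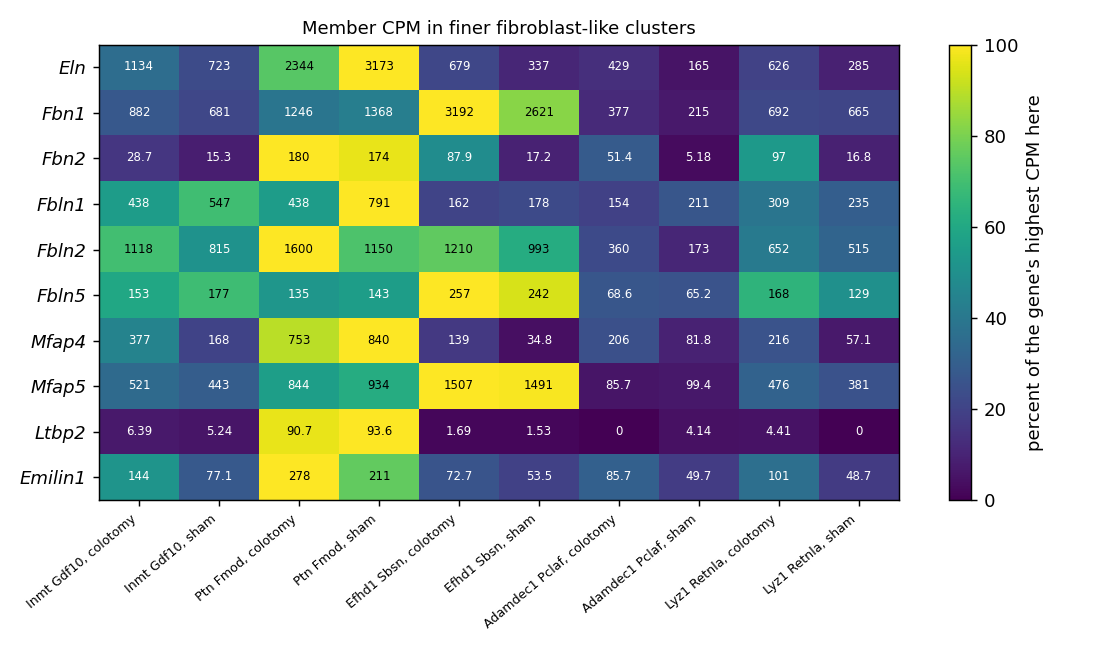
CPM of each member (rows) in 5 finer fibroblast-like clusters of each library (columns, named by 2 leading genes); numbers are CPM and colour is the percent of that gene's highest value in its row, so colours compare cells and not genes. Eln, Mfap4, Ltbp2 and Emilin1 peak in the Ptn and Fmod columns, and Fbn1, Mfap5 and Fbln5 in the Efhd1 and Sbsn columns, as with Fbn1 at 3192 CPM.

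Of the other stromal classes, mesothelial-like cells, which line the peritoneal cavity, had Fbln1 at 360 CPM (colotomy, 55 UMIs) and 335 CPM (sham, 452 UMIs), close to the fibroblast-like level of that gene, and Fbln2 at 380 and 309 CPM. Eln stood there at 354 CPM (54 UMIs) and 78.6 CPM (106 UMIs), a log2 ratio of 2.17 (1.67 to 2.66), while the Fbln1 ratio was 0.10 (-0.33 to 0.51). Eln and Fbln1 thus had different ratios between the libraries in these cells, which was not particular to them. The Eln and Fbln1 log2 ratios were 3.28 and 0.36 in T cell-like, 3.05 and 1.57 in plasma cell-like, 2.22 and 1.07 in epithelial-like and 2.11 and 0.63 in macrophage-like cells. Only in vascular endothelial-like cells was Eln the lower, at 0.80 and 1.20. The part of free RNA in these ratios was not tested.

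Vascular endothelial-like cells, 169 in colotomy and 1046 in sham, had Eln at 243 and 140 CPM, Fbln2 at 209 and 159 CPM and Fbln5 at 139 and 58.0 CPM, the last from 20 and 96 UMIs. Plasma cell-like cells had Eln at 251 and 30.3 CPM, Fbln2 at 195 and 29.1 CPM and Fbln5 at 20.2 and 8.13 CPM. The colotomy Eln and Fbln2 levels of endothelial-like cells were thus no clearer than those of plasma cell-like cells. The Fbln5 log2 ratio was 1.26 (0.49 to 1.97) and that of Emilin1 1.94 (1.02 to 2.78), from 16 and 48 UMIs. Smooth muscle-like cells, known makers of elastin in vessels, had Eln at 461 CPM in the 327 sham cells (405 to 522). In the 52 colotomy cells 7 UMIs gave 173 CPM (69.4 to 356). Ltbp2 had 0 UMIs in either set, which allows up to 5.55 CPM in sham and 74.0 CPM in colotomy when 3 counts are taken as the limit.

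**Figure D3:**
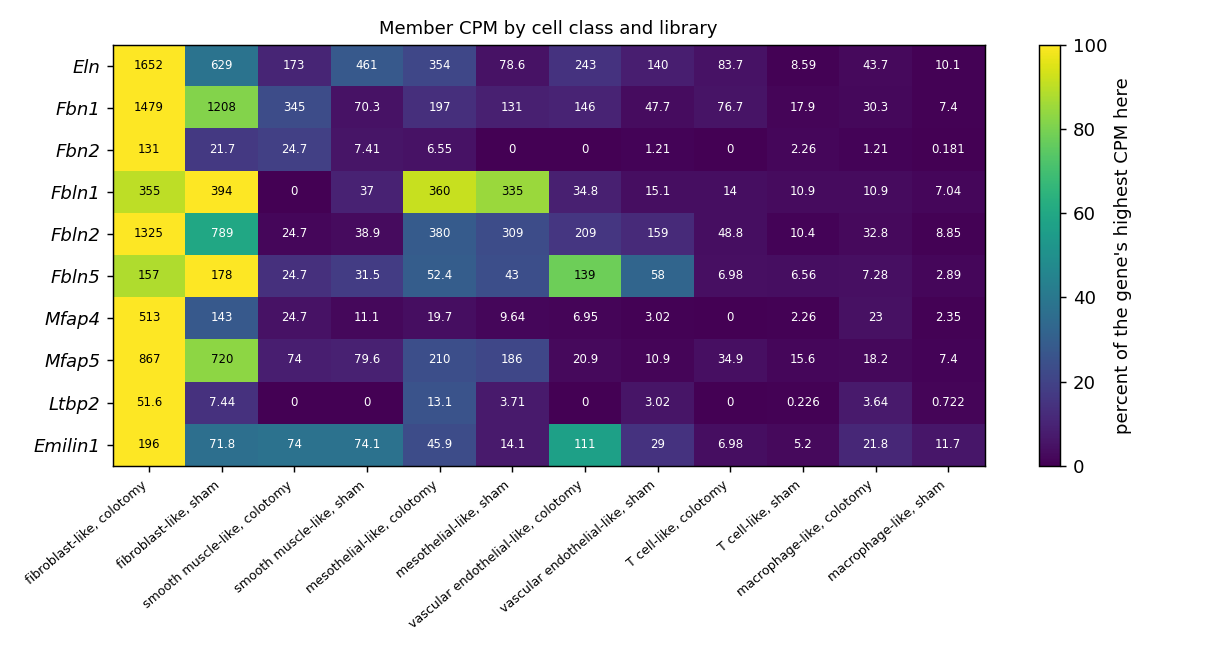
CPM of each member (rows) in 6 cell classes of each library (columns); numbers are CPM, 0 means that no UMI was seen, and colour is the percent of that gene's highest value in its row. Fibroblast-like columns hold the highest value of all 10 members, and Fbln1 is near its highest value (394 CPM) in mesothelial-like cells too (360 and 335 CPM).

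The partners of the elastic fibre were read from 4 lists of 43 further genes, 40 of which passed the filter in fibroblast-like cells. Of these, 20 were at least 1.5-fold higher in colotomy and 3 at least 1.5-fold lower, against the same 17.8% and 18.5% of all genes, with a median log2 ratio of 0.58. Lysyl oxidases, the crosslinking enzymes, gave 4 higher of 5, led by Lox at 262 against 81.2 CPM (log2 ratio 1.69, 1.55 to 1.84) and Loxl2 at 467 against 213 CPM (1.13, 1.04 to 1.23). Elastin-degrading proteases gave 6 higher of 7. Mmp2 stood at 1140 against 438 CPM (1.38, 1.31 to 1.44), and the cathepsin Ctsk at 182 against 70.5 CPM (1.37, 1.20 to 1.53).

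Mmp12 and Mmp9, proteases best known from macrophages and neutrophils, had the highest ratios of the named partners. Mmp12 stood at 68.4 against 3.23 CPM (4.40, 3.85 to 5.00) and Mmp9 at 25.3 against 6.69 CPM (1.92, 1.43 to 2.42). The summed level of 7 neutrophil markers in the same fibroblast-like cells was 1885 CPM in colotomy and 76.0 CPM in sham, and that of 8 macrophage markers 532 and 243 CPM, with 0 of either list at 0. Their part in the protease ratios was not tested. The corresponding sums of 8 smooth muscle markers were 200 and 93.3 CPM and of 8 pericyte markers 100 and 47.3 CPM, and the smooth muscle myosin Myh11 stood at 18.7 and 15.2 CPM. Their part in the Eln and Mfap4 ratios was not tested.

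Assembly and microfibril partners gave 7 higher and 2 lower of 17. The microfibril protein Mfap2 (151 against 60.6 CPM, 1.31), the proteoglycan Bgn (2253 against 1001 CPM, 1.17) and Thsd4, which promotes fibrillin assembly (10.1 against 2.70 CPM from 32 and 25 UMIs, 1.91), were at least 2-fold higher. Ltbp4, which helps Fbln5 and elastin onto microfibrils, was lower at 366 against 698 CPM (-0.93, -1.02 to -0.84), as was the tenascin Tnxb at 453 against 691 CPM (-0.61). Ltbp4 and Tnxb were picked after their values were seen. Efemp1, a fibulin relative outside the set, stood at 378 and 390 CPM (-0.05, -0.14 to 0.05), while its relative Efemp2 passed the fold at 141 against 85.3 CPM (0.72, 0.55 to 0.89). Receptors gave 3 higher and 1 lower of 11, the lower being the integrin subunit Itga4 at 21.5 against 63.5 CPM (-1.56), with the leukocyte gene Ptprc at 151 against 465 CPM in the same cells. The part of leukocyte RNA in the Itga4 ratio was not tested.

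Within cluster 5, 16 of 39 tested partners were at least 1.5-fold higher and 2 at least 1.5-fold lower, beside 17.7% and 16.7% of all genes, with a median log2 ratio of 0.41. Within cluster 8 the counts were 7 and 6 of 39, near the 18.2% and 18.3% of all genes there, with a median of 0.17. Of the lysyl oxidases, 0 of the 4 tested in cluster 8 passed the fold in either direction.

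Pi16, a secreted peptidase inhibitor, marks adventitial fibroblasts of many tissues. At least 1 Pi16 UMI was found in 1154 of 3822 colotomy cells (30.2%) and 1839 of 5311 sham cells (34.6%) of the fibroblast-like class. These shares were not taken at equal depth, with medians of 718 and 1536 UMIs per cell. In cells thinned to the fixed depth used above, Pi16 was found in 29.7% (26.5 to 33.0) of 788 colotomy cells. In thinned sham cells it was found in 27.8% (26.5 to 29.2) of 4341, and the intervals overlap. Over the class Pi16 stood at 633 CPM in colotomy and 523 CPM in sham, a log2 ratio of 0.28 (0.20 to 0.35). Without thinning, positive cells were somewhat deeper, with a median of 755 against 708 UMIs in colotomy and 1747 against 1431 UMIs in sham. Cluster 8 held 49.6% of positive and 62.3% of negative colotomy cells, and 2.61% and 3.77% of sham cells.

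Fbn1 and Mfap5 were higher in Pi16-positive cells of both libraries. This overlaps with their peak in the finer cells led by Efhd1 and Sbsn, where Pi16 was also highest, and is not a separate observation. Fbn1 stood at 2127 CPM in positive and 1179 CPM in negative colotomy cells, a log2 ratio of 0.85 (0.77 to 0.93). In sham it stood at 1952 and 731 CPM, a log2 ratio of 1.42 (1.36 to 1.47). Mfap5 stood at 1202 and 712 CPM in colotomy (0.76, 0.65 to 0.87) and at 1165 and 435 CPM in sham (1.42, 1.35 to 1.49). For both genes the 2 libraries lay closer together in positive than in negative cells, and negative cells were the higher in colotomy. A negative cell is one in which no Pi16 UMI was seen, at a median of 708 UMIs in colotomy and 1431 UMIs in sham. The part of depth in this difference between the libraries was not tested.

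They were the 2 members at least 1.5-fold higher in positive cells in each library, where 8.2% of 12225 genes in colotomy and 5.79% of 13926 genes in sham were. At least 1.5-fold lower were 2 members in colotomy, Fbn2 (95.9 against 147 CPM, -0.61, -0.96 to -0.28) and Emilin1 (146 against 220 CPM, -0.59, -0.87 to -0.32), neither past the fold when cells were typed by their own markers (-0.48 and -0.52), and 1 in sham, Fbln1 (297 against 457 CPM, -0.62, -0.73 to -0.52), where 12.6% and 10.3% of all genes were. Eln was 0.35 log2 units higher in positive colotomy cells and 0.33 in sham, and Fbln2 0.30 and 0.39, both under 1.5-fold. Fbln5, Mfap4 and Ltbp2 lay between -0.26 (Ltbp2 in sham) and 0.25 (Ltbp2 in colotomy). Fbn2 in sham was at 24.3 and 19.98 CPM, and its interval includes 0 (0.28, -0.14 to 0.70).

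Within the clusters Fbn1 kept its direction, with log2 ratios of 0.88 (colotomy) and 1.45 (sham) in cluster 5 and 0.71 and 0.88 in cluster 8, and Mfap5 gave 0.92 and 1.48 in cluster 5 and 0.63 and 0.51 in cluster 8. The sham values of cluster 8 come from 48 positive and 131 negative cells. Eln in the colotomy library gave -0.09 (-0.28 to 0.10) in cluster 5 and 0.62 (0.53 to 0.71) in cluster 8, and in sham it was positive in both, 0.35 (0.26 to 0.43) and 0.71 (0.54 to 0.88). Fbln1 was lower in positive cells of cluster 5 in colotomy (-0.92) and sham (-0.69), and not in cluster 8 (0.10 and 0.53).

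**Figure D4:**
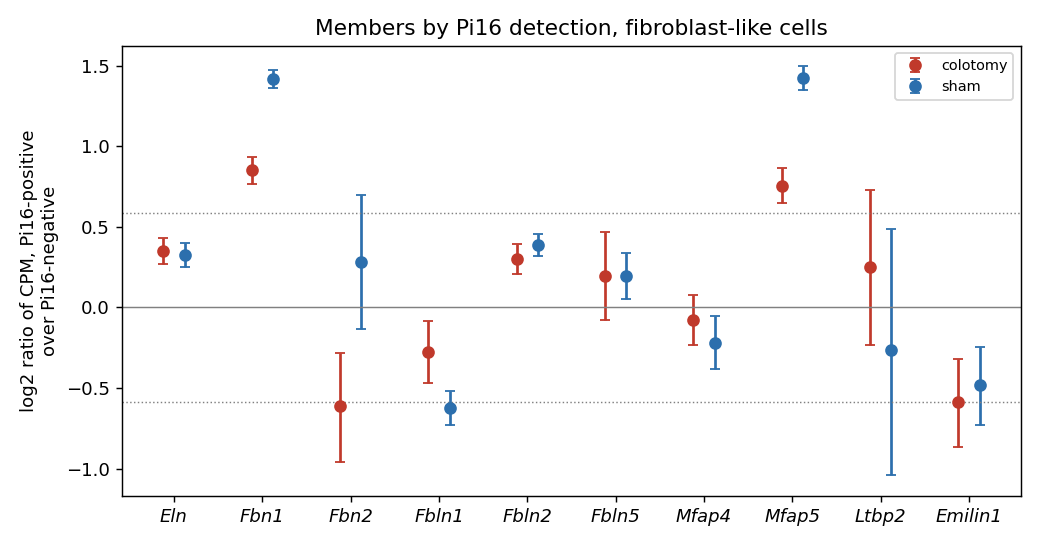
Log2 ratio of each member's CPM in Pi16-positive over Pi16-negative fibroblast-like cells, for colotomy (red) and sham (blue), with exact 95% counting intervals; dotted lines mark 1.5-fold. Fbn1 (0.85 and 1.42) and Mfap5 (0.76 and 1.42) lie above the upper line in both libraries, and the intervals of Fbn2 (-0.96 to -0.28 in colotomy, -0.14 to 0.70 in sham) do not overlap.

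Of 40 partners tested in colotomy, 7 were at least 1.5-fold higher in Pi16-positive cells and 4 at least 1.5-fold lower, beside 8.2% and 12.6% of all genes. Of 39 tested in sham, 5 were higher and 3 lower, beside 5.79% and 10.3%, so the lower counts did not exceed the shares of all genes. Emilin2, a relative of Emilin1, was higher in positive cells in both libraries (312 against 145 CPM, 1.11, and 232 against 96.2 CPM, 1.27), although Emilin1 was lower. Efemp1 stood at 554 against 297 CPM (0.90) and 581 against 268 CPM (1.11). Adamtsl4, which binds fibrillin, gave 1.01 and 1.05 and Adamtsl5 1.18 and 0.95. Fbln7 was lower, -1.45 and -1.98. Mmp12 was lower in positive colotomy cells (19.99 against 90.8 CPM, -2.18), and in sham its interval includes 0 (0.64, -0.49 to 1.78, from 15 and 15 UMIs).

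The genes whose level was most like each member's were sought over 21 sets of cells, a class in a library, among 6797 genes. Likeness was Pearson's r of log2 (CPM + 10). Ltbp2 averaged 4.30 CPM and Fbn2 10.6 CPM over the sets, under or near the added 10, so their r values rest on few sets. Sets of 1 library share depth and free RNA, so r is a description only. Eln was most like Lamc1 (0.96), Sparc (0.94) and Bgn (0.94), Fbn1 most like Col1a2 (0.94) and Mfap5 most like Vgll3 (0.97). Col8a1 was the nearest gene of both Mfap4 (0.96) and Fbn2 (0.94) and the second nearest of Ltbp2 (0.84), after Sfrp2 (0.87). Emilin1 was, like Eln, nearest to Lamc1 (0.93). Fbln1 was nearest to Medag (0.92), Fbln2 to Mgp (0.94) and Fbln5 to Amotl1 (0.94).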

How the data were processed

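The deposited matrices hold raw UMI counts per gene and barcode, made with Cell Ranger 6.0.0 per the file headers. Per the submitters' processing notes the build was mm10 and STAR 2.5.1b, Seurat and Space Ranger were used, with no role given. Barcodes with at least 500 gene UMIs, 300 genes and under 20% mitochondrial UMIs were kept, and no doublets were removed. Hashtag components lay only 0.172 to 0.976 lower-component SDs apart, so tissue of origin was not used.

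Cells of both libraries were clustered together with scanpy 1.11.5 on 2000 variable genes without the members (30 principal components, 15 neighbours, Leiden resolution 1, igraph 0.11.9), which gave 27 clusters. A cluster was named from 23 marker lists when at least 3 markers reached 10% of its cells and 2-fold the CPM of other cells. 16 clusters were named and 11 left unnamed. Finer clusters come from resolution 2.

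UMIs were summed over a class and library and given as counts per 1000000 (CPM), with exact Poisson intervals. Shares have Clopper-Pearson and ratios conditional binomial intervals (scipy 1.17.1), and molecules of 1 library are not replicates. A gene was called at 1.5-fold with at least 10 UMIs over both sets, and a count of 0 was replaced by a limit of 3 counts. Scripts were tested on simulated data. Named partner genes are the up to 12 with the largest ratios of at least 2-fold and at least 50 UMIs, apart from those named for a small count or as a relative of a member. The members, lists and rules were chosen with earlier results of these data known. Promoters and gene positions were matched by symbol and Ensembl ID.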

Additional observations from a re-analysis of the deposited data

Results flagged for a closer look

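Eln was higher in colotomy than in sham cells of fibroblast-like cluster 5 (log2 ratio 0.64) and lower in cluster 8 (-0.45), each with a counting interval that excludes 0. Fbln1 in the sham library was lower in Pi16-positive than in Pi16-negative cells of cluster 5 (-0.69) and higher in cluster 8 (0.53). Both were singled out because the same comparison ran in opposite directions in the 2 clusters; the difference between clusters was not tested, with 1 library per group.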

How the results depend on the processing

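In all 12 alternatives chosen with the design, the count of members that passed 1.5-fold upward after colotomy, in the fibroblast-like class, was 6, as in the report. Beside it, between 14.2% and 22.1% of all genes passed upward, except after subtraction of free RNA, where 67.2% did. The alternatives were stricter cell filters, removal of barcodes with both hashtags, other resolutions, clustering with the members, typing of single cells, subtraction of free RNA, means over cells, centring, cells with Y-linked RNA and no Xist, thinning and at least 50 UMIs per gene. Centring used a median of only -0.0158 and all members pass 50 UMIs, so neither could change the count of members. Hashtag components overlapped, so removal of barcodes with both hashtags does not test doublets. The count at least 1.5-fold lower was 0 and became 1 with at least 1000 UMIs and 500 genes and 1 when thinned to 1000 UMIs, where Fbln5 reached -0.66 at the lowest. Of all genes, 20.2% and 20.5% were at least 1.5-fold lower in these 2 settings. Subtracting free RNA moved the median of all genes to 1.55 because many genes were set to the limit of 3 counts. It gave 25 partners at least 1.5-fold higher in place of 20 and 5 at least 1.5-fold lower in place of 3. With 67.2% of all genes past the fold upward, its upward counts do not set members or partners apart.

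Alternatives added after the data were seen changed more. Within cluster 8 the members gave 1 higher and 1 lower and the partners 7 higher and 6 lower, and the direction turned for Eln (-0.45), Mfap4 (-0.18), Ltbp2 (-0.078) and, from under 1.5-fold, Fbn1 (-0.0037). Within cluster 5 Ltbp2 turned to -0.25 and Fbln5, under 1.5-fold, to 0.18. In cells with no marker UMI of another cell type, 303 colotomy and only 25 sham cells, 3 of 9 members and 9 of 27 partners were higher and 5 partners lower, beside 19.7% and 36.8% of all genes, and Mfap5 stood at -0.11. For Pi16, called values turned for Fbn2 in colotomy within cluster 5 (0.13) and for Fbln1 in sham within cluster 8 (0.53). Values under 1.5-fold turned in 6 of 100 planned values, among them Fbn2 in sham (-0.33, thinned) and Ltbp2 in colotomy (-0.62, 2 or more Pi16 UMIs), and within clusters for Eln (-0.089) and Fbln1 (0.10) in colotomy and others, 8 of 39 values with the called ones. The count of members higher in Pi16-positive cells was 2 or 3 throughout. The count lower ran from 0 (cells typed by their own markers) to 3 (2 or more Pi16 UMIs) in colotomy, against 2, and from 1 to 3 in sham, against 1. The cause of these moves was not tested. Shares of all genes past the fold were taken for the main Pi16 split and not for its alternatives, so the Pi16 counts of the alternatives cannot be set against all genes.

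No paired analysis was possible because each group has 1 library and the labels give no shared replicate number,. Depth limits Ltbp2 outside cluster 8 (4 colotomy UMIs in cluster 5), the 52 colotomy smooth muscle-like cells and the 35 thinned colotomy lymphocytes.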
